A study of Mus musculus with 2 samples.

Results

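The genes described here are 44 genes of the lysosome and of the vacuolar H+-ATPase (V-ATPase), the proton pump that acidifies it, out of 55536 annotated genes quantified in each library. They were taken from a list of symbols, and all 44 were found in every table. The rule itself uses no measured value, but the list was chosen with earlier results of these data known. By role they fall into 6 proteases, 16 other hydrolases, 4 activators and regulators, 7 membrane proteins and 11 genes of the proton pump. The tissue was the left cerebral cortex, taken at 36 days of age from 2 females of B6CASTF1/J, the hybrid of C57BL/6J and CAST/EiJ, and total RNA libraries were made from 300 ng each with added ERCC spike-in RNAs. There was 1 library per mouse and 1 group, and the labels name no treatment and no other genotype, tissue or age, so the data allow a description of levels and a comparison of the mice but no test. Both mice are F1 hybrids whose reads were set against the C57BL/6J reference, and any loss of reads from CAST/EiJ alleles was not tested.

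The lysosome is the acidic compartment in which cells break down proteins, lipids, glycans and material delivered by endocytosis and autophagy. Its soluble enzymes work at low pH, which the V-ATPase maintains by coupling ATP hydrolysis in its cytosolic V1 sector to proton transport through its membrane V0 sector. In neurons the same pump also acidifies synaptic vesicles, where the proton gradient drives the loading of neurotransmitter. Loss of single lysosomal enzymes causes storage disorders, many of which damage the brain.

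The depth, to the nearest 100, was 29417200 expected counts in replicate 1 against 35188800 in replicate 2. Markers of the labelled tissue were present: Snap25, a synaptic gene, stood at 1391 and 1191 TPM (transcript abundance corrected for length and scaled to a fixed total per library), and the excitatory neuron marker Slc17a7 at 615 and 643 TPM. The oligodendrocyte genes Mog and Mbp and all 5 microglia genes were also expressed, and the leukocyte gene Cd3e had 0 counts in replicate 1 and 1 in replicate 2. The choroid plexus genes differed between the mice, with Ttr at 70.1 TPM in replicate 1 and 8.29 in replicate 2. Because the tissue was sequenced in bulk, fewer cells of a type and less RNA per cell cannot be told apart.

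All 44 genes had a TPM of at least 1 and a mean count of at least 100, so none was lost to a filter on low values. Their median level was 40.9 TPM in replicate 1 and 36.5 in replicate 2, or 38.7 ± 3.09 (SD, n = 2), against 15.3 ± 1.60 (SD, n = 2) for all 12754 expressed nuclear protein-coding genes. The median lay 2.48-fold above that of all expressed genes in replicate 1 and 2.57-fold in replicate 2. Of the 44 genes, 13 exceeded 100 TPM in both mice (29.5%), against 6.29% of all expressed nuclear protein-coding genes, and 6 lay below 10 TPM in both (13.6%, against 34.4%). The groups differed widely. The proton pump had a median of 153 ± 7.14 TPM (SD, n = 2), the proteases 51.1 ± 2.32, the membrane proteins 36.3 ± 6.12, the activators and regulators 19.4 ± 1.35 and the other hydrolases 14.9 ± 0.19, the last close to the median of all expressed genes.

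**Figure D1:**
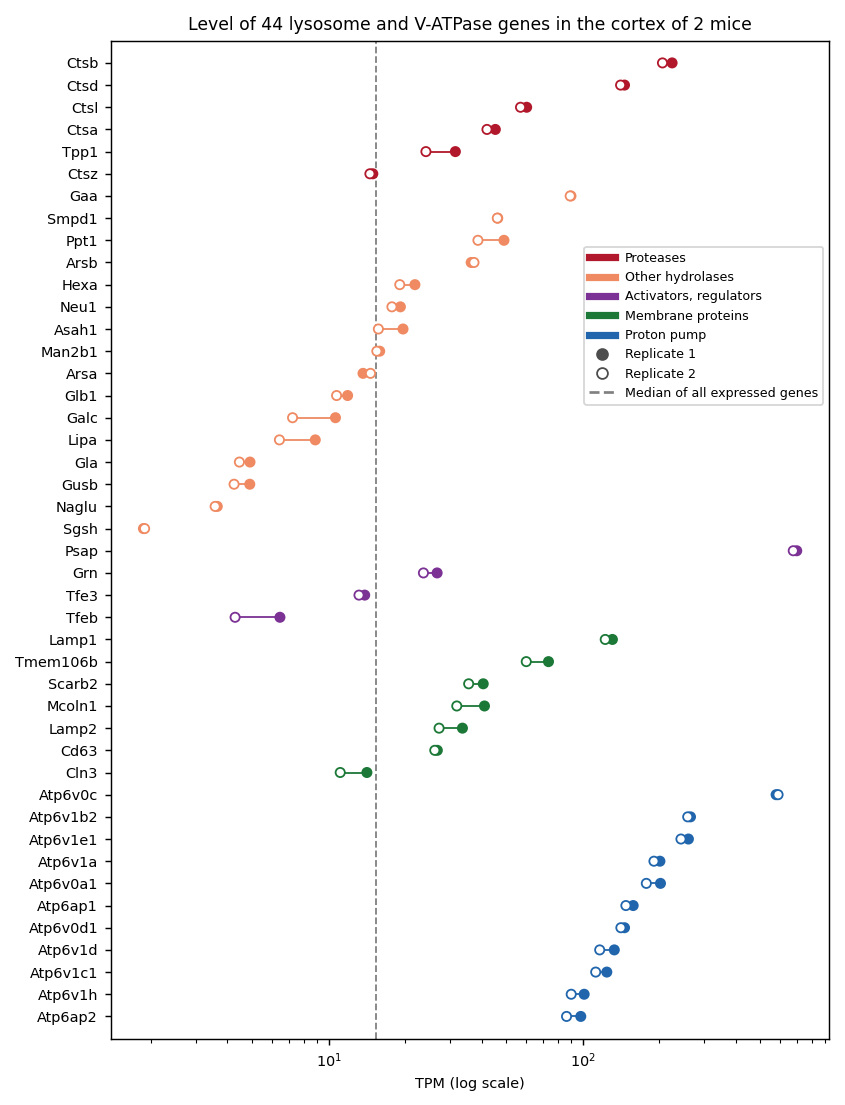
Level of each of the 44 genes in TPM on a log axis, coloured by role, with filled points for replicate 1, open points for replicate 2 and a dashed line at the median of all expressed nuclear protein-coding genes (15.3 TPM). All 11 pump genes lie well to the right of that line, while the other hydrolases spread from 1.88 to 89.6 TPM on both sides of it.

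The order of the levels was resolved only in part. When the 44 genes were ranked by mean TPM, 16 of the 43 pairs of neighbours had values that did not overlap between the mice, and 27 pairs overlapped. Psap stood first, apart from Atp6v0c, which stood apart from Atp6v1b2. In the second transcript table the first 2 overlapped, with Psap at 963 and 1041 TPM and Atp6v0c at 955 and 1068. At the bottom Gusb, Naglu and Sgsh were each separated from the next. In the second transcript table Gusb, at 7.96 and 6.92 TPM, overlapped Naglu, at 6.79 and 7.18. With only protein-coding transcripts summed, a setting added after the data had been seen, Gusb lay below Naglu in both mice. Atp6v1b2 and Atp6v1e1 overlapped, as did Atp6v1a and Atp6v0a1.

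Among the proteases, Ctsb was highest, at 225 TPM in replicate 1 and 206 in replicate 2. It encodes cathepsin B, a cysteine protease. Ctsd, the aspartic protease cathepsin D, followed with 146 and 141 TPM. Both genes lay above every other protease in both mice, and Ctsd stood at 0.667 ± 0.02 (SD, n = 2) of the level of Ctsb. This order reversed when only protein-coding transcripts were summed, a setting added after the data had been seen, with Ctsd at 1.64 ± 0.05 (SD, n = 2) of the level of Ctsb. Cathepsin L, a second cysteine protease encoded by Ctsl, had 60.2 and 57.0 TPM. Ctsa encodes a serine carboxypeptidase that also protects the sialidase Neu1 and the beta-galactosidase Glb1 from degradation, and it had 45.3 and 42.0 TPM. Its ratio to Neu1 was 2.36 in one mouse and 2.37 in the other. Tpp1, whose product removes tripeptides from protein ends, had 31.6 and 24.2 TPM. Ctsz, a carboxypeptidase, was lowest at 14.9 and 14.6 TPM. From protein-coding transcripts only, Tpp1 lay below Ctsz in both mice, at 10.5 and 9.55 TPM.

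The other hydrolases ranged from 1.88 to 89.6 TPM in the mean. Gaa, the acid alpha-glucosidase that degrades glycogen, led at 89.9 and 89.3 TPM. Enzymes of lipid, lipid-modified and glycosaminoglycan substrates came next: Ppt1, which removes palmitate from proteins, at 49.0 and 38.7 TPM, Smpd1, the acid sphingomyelinase, at 46.3 and 46.2, and Arsb, a sulfatase of dermatan and chondroitin sulfate, at 36.4 and 37.4. Hexa encodes the alpha subunit of beta-hexosaminidase and had 21.9 and 19.1 TPM.

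Neu1, the sialidase, was at 19.2 and 17.8 TPM, Asah1, the acid ceramidase, at 19.6 and 15.7, and Man2b1, the lysosomal alpha-mannosidase, at 15.9 and 15.5. All of these lay near the median of all expressed genes. Glb1, the beta-galactosidase of GM1 ganglioside, had 11.9 and 10.8 TPM.

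Arsa and Galc act on the same myelin lipids: arylsulfatase A removes the sulfate of sulfatide, and galactocerebrosidase then degrades the galactosylceramide that remains. Arsa had 13.7 and 14.6 TPM and Galc 10.7 and 7.22. The ratio of Arsa to Galc was 1.28 in replicate 1 and 2.03 in replicate 2. From protein-coding transcripts only the order reversed, and the ratio was 0.487 in replicate 1 and 0.502 in replicate 2. Lipa, which hydrolyses cholesteryl esters, had 8.87 and 6.41 TPM.

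The lowest levels were those of Gla, the alpha-galactosidase, at 4.91 and 4.46 TPM, Gusb, the beta-glucuronidase, at 4.90 and 4.25, and 2 enzymes of heparan sulfate, Naglu at 3.65 and 3.58 and Sgsh at 1.87 and 1.89. Sgsh rested on 145 and 204 counts and Naglu on 168 and 223.

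Psap was the highest of all 44 by gene TPM, at 696 and 674, though it overlapped Atp6v0c in the second transcript table. It encodes prosaposin, the precursor of the saposins that present sphingolipids to hydrolases such as Galc and Arsa. Grn encodes progranulin, which binds prosaposin and is delivered to the lysosome, and had 26.8 and 23.6 TPM. Psap exceeded Grn 27.3 ± 1.78-fold (SD, n = 2).

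Tfeb and Tfe3 encode related transcription factors that activate lysosomal genes. Tfe3 had 13.9 and 13.2 TPM and Tfeb 6.44 and 4.29, a ratio of 2.61 ± 0.65 (SD, n = 2) in favour of Tfe3. The TPM of Tfeb differed between the mice although its counts of 174 and 203 gave a library-size-corrected log2 ratio of 0.03. The effective length deposited for the gene was 1445 bases in replicate 1 and 1871 in replicate 2, and its leading transcript, Tfeb-202, held 30.7% and 52.4% of its TPM.

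Among the membrane proteins, Lamp1, a heavily glycosylated protein of the lysosomal surface, was highest at 131 and 123 TPM. Lamp2, its relative with roles in autophagy, had 33.7 and 27.2 TPM. Lamp1 exceeded Lamp2 by 4.20 ± 0.43-fold (SD, n = 2). Tmem106b, a type II membrane protein of late endosomes and lysosomes, stood at 73.4 and 60.0 TPM. Scarb2 encodes LIMP-2, a membrane protein that also acts as a sorting receptor, and had 40.6 and 35.6 TPM. Mcoln1 encodes a lysosomal cation channel and had 41.1 and 32.0 TPM. Cd63, a tetraspanin of late endosomes, had 26.8 and 26.2 TPM, and Cln3, whose loss causes a juvenile lipofuscinosis, was lowest at 14.2 and 11.1.

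The proton pump was the most abundant group. The 11 genes together made up 0.50% of the TPM of nuclear protein-coding genes, and all 44 genes 0.93%. Atp6v0c encodes the proteolipid that forms the rotating ring of the V0 sector in several copies, and reached 577 and 587 TPM. It exceeded Atp6v0b, which encodes a related ring subunit, 3.16 ± 0.27-fold (SD, n = 2). The remaining V0 genes of the group were Atp6v0a1, which carries the proton half-channels, at 202 and 178 TPM, and Atp6v0d1, the stalk connector, at 146 and 141.

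In the V1 sector the nucleotide-binding hexamer consists of the catalytic A subunit and the B subunit in equal numbers. Atp6v1b2 had 266 and 259 TPM and Atp6v1a 201 and 191, a ratio of A to B of 0.747 ± 0.02 (SD, n = 2). Atp6v1e1, of the peripheral stalk, had 261 and 244 TPM. Atp6v1d, of the central rotor, had 133 and 117, Atp6v1c1, which links V1 to V0, 124 and 113, and Atp6v1h, a regulatory subunit, 101 and 90.2. The accessory subunits Atp6ap1 and Atp6ap2 had 158 and 148 and 98.3 and 86.4 TPM, so Atp6ap1 exceeded Atp6ap2 1.66 ± 0.07-fold (SD, n = 2). Transcript levels within the pump therefore spanned from 92.4 TPM for Atp6ap2 to 582 for Atp6v0c in the mean.

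Subunits with several genes were dominated by 1 gene each. Atp6v0a1 held 84.9 ± 0.51% (SD, n = 2) of the TPM of the a subunit genes, followed by Atp6v0a2 with 12.1 ± 1.24%, Tcirg1 with 2.61 ± 0.62% and Atp6v0a4 with 0.336 ± 0.11%. For the C subunit Atp6v1c1 held 99.1 ± 0.26%, and for the E subunit Atp6v1e1 held 99.99 ± 0.02%. Atp6v0d2 and Atp6v1b1, the alternatives to Atp6v0d1 and Atp6v1b2, had 0 counts in both libraries. A count of 0 allows up to 0.0728% of the counts of the d subunit genes in replicate 1 and 0.0556% in replicate 2, and up to 0.0225% and 0.0171% for the B subunit. Among pump genes outside the 44, Atp6v0e2 held 91.6 ± 0.51% of the e subunit and Atp6v1g2 79.6 ± 0.29% of the G subunit, with Atp6v1g1 at 20.4 ± 0.29%. In both mice the leading gene of each of these 7 subunits was the same.

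**Figure D2:**
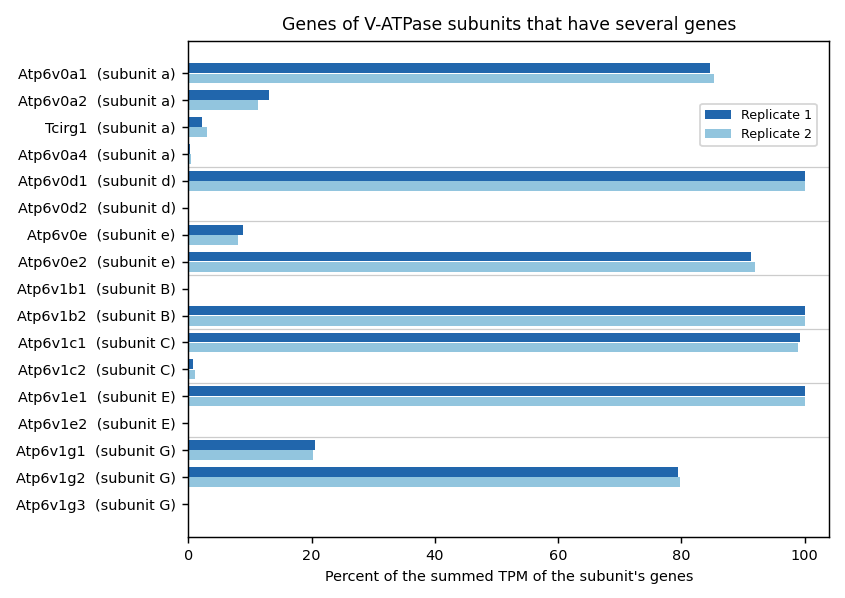
Each gene's percent of the summed TPM of its V-ATPase subunit, for the 7 subunits encoded by several genes, with dark bars for replicate 1 and light bars for replicate 2. The d, B, C and E subunits are each represented almost wholly by 1 gene, while the a, e and G subunits have a second gene with a visible share.

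By median, further genes of the lysosome and of the pump itself lay below the 11 pump genes described above. Single genes of both lists were as high as some of those 11. Of a list of 57 further lysosome genes, 55 were expressed. The median over all 57 was 15.3 ± 0.88 TPM (SD, n = 2), and 3 exceeded 100 TPM in both mice. Those 3 were Ids, a sulfatase of heparan and dermatan sulfate, at 158 and 138 TPM, Sort1, a sorting receptor, at 142 and 128, and Lamp5, a neuronal LAMP relative, at 135 and 113. The lowest were Tpcn2 with 1.94 and 1.36 TPM, Acp5 with 0.34 and 0.25, and Tfec, which had 0 counts. Of 15 further pump genes 9 were expressed, and 5 exceeded 100 TPM in both mice. The median over all 15 was 17.8 ± 1.53 TPM (SD, n = 2). Atp6v1g2 stood at 255 and 240 TPM and Atp6v0e2 at 196 and 191, while Atp6v0d2, Atp6v1b1 and Atp6v1g3 had 0 counts.

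Counts were then compared between the mice, as log2 ratios of replicate 2 over replicate 1 from rounded expected counts with TMM library sizes. TPM itself was lower in replicate 2 for 40 of the 44 genes (90.9%, against 83.5% of all expressed nuclear protein-coding genes), while nuclear protein-coding genes together made up 46.9% of TPM in replicate 1 and 41.9% in replicate 2. None of the 44 differed 1.5-fold or more, against 3.09% of the 12615 genes whose counts averaged 100 or more. At 2-fold there were also none, against 0.713%. With spike-in counts as library sizes Galc and Lipa passed 1.5-fold, as did 2647 of the 12615 genes. With 1 library per mouse there is no replicate check of these ratios and no p-value.

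Most ratios were above 0 on TMM library sizes. Of the 44 genes 37 had a ratio above 0 (58.9% of all genes) and 7 below 0 (41.1%), and the median was 0.13 against 0.04 for all genes. Relative to that median of all genes, which divides all genes evenly, 33 of the 44 lay above and 11 below. Counting intervals, at 95% and from the exact binomial distribution, lay wholly above the median of all genes for 18 of the 44 (21.9% of all genes) and wholly below it for 6 (23.6%). Set against 0, the intervals of 24 genes lay above (29.5% of all genes) and those of 2 below (17.5%). They cover counting error only, and not the differences between animals or dissections. Such intervals narrow as counts rise, and the 44 were not set against genes of like counts. On the spike-in scale the median of all genes moved to -0.42 and the 44 ratios ranged from -0.78 to -0.14, with 33 genes again above the median of all genes. A direction for a single gene therefore holds only relative to the median of all genes.

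**Figure D3:**
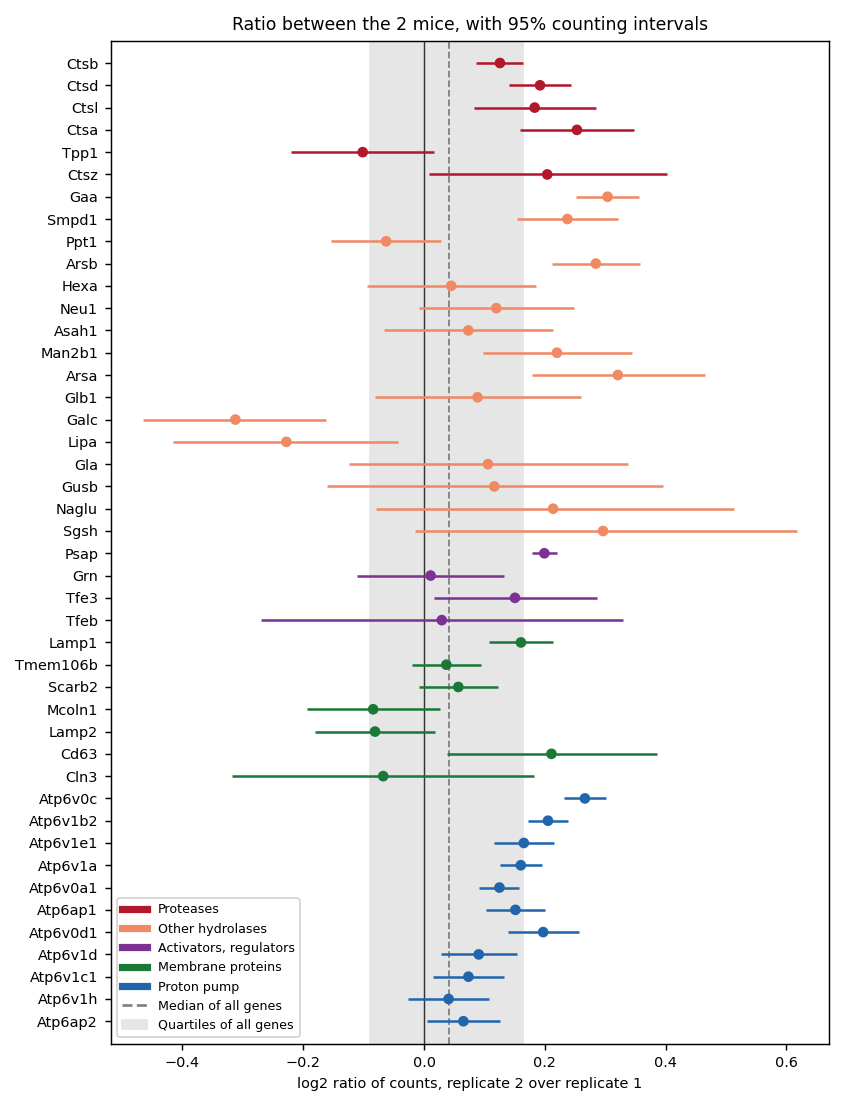
Log2 ratio of counts in replicate 2 over replicate 1 for the 44 genes with 95% counting intervals, coloured by role. The dashed line marks the median of all genes (0.04) and the grey band their quartiles (-0.09 to 0.16), and all 11 pump ratios lie between 0.04 and 0.27 while Galc, Lipa and Tpp1 lie left of the band.

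All 11 pump ratios were above 0, from 0.04 for Atp6v1h to 0.27 for Atp6v0c, and 10 of the 11 exceeded the median of all genes. The highest ratios were those of Arsa, at 0.32 (interval 0.18 to 0.47) on 677 and 967 counts, and Gaa, at 0.30 (0.25 to 0.36) on 5168 and 7292 counts. Psap, with 33049 and 43366 counts, had the narrowest interval, 0.18 to 0.22. At the other end Galc had a ratio of -0.31 (-0.46 to -0.16) on 749 and 689 counts, and Lipa of -0.23 (-0.42 to -0.04) on 484 and 472. These were the only 2 of the 44 with an interval wholly below 0, and 4 others (Tpp1, Ppt1, Mcoln1, Lamp2) lay wholly below the median of all genes.

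Markers of oligodendrocytes, the myelin-forming cells, were also lower or level in replicate 2. Mbp was at 888 and 682 TPM with a ratio of -0.12 and Mog at 41.2 and 35.3 TPM with a ratio of 0.02. The macrophage marker Mrc1 had a ratio of -0.31, and the choroid plexus gene Ttr one of -2.82. The 5 microglia markers ranged from -0.03 to 0.20. Their part in the ratios of Galc and Lipa was not tested.

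On the X chromosome lie 5 of the 44 genes, namely Gla, Tfe3, Lamp2, Atp6ap1 and Atp6ap2, and their ratios ranged from -0.08 to 0.15. Counts of Glb1, Cd63, Atp6v0c and Atp6ap2 were not whole numbers. Division of reads that fit several genes can give such counts, and this was not tested here. Ctsd had whole counts, but their deposited posterior SD was 16.7 in replicate 1 and 20.6 in replicate 2. For Ctsl, also with whole counts, it was 0.44 and 0. The spans of 17 of the 44 genes are crossed by an annotated gene on the opposite strand and of 7 by one on the same strand, and reads there may be shared. The same shares over all genes were not computed.

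The transcripts behind these levels were examined in both transcript tables. Ctsz and Hexa have a single annotated transcript. In the first table the leading transcript held at least 50% of the gene's TPM in both mice in 37 of the 44 genes. That was 84.1%, against 67.4% of all expressed nuclear protein-coding genes. It held at least 90% in 15 (34.1%, against 22.0%). In the second table, with its own leading transcripts, these counts were 32 (72.7%, against 59.6%) and 12 (27.3%, against 18.6%). The share of the first table's leading transcript differed between the tables by more than the SD between the mice in 30 genes. That SD rests on 2 values, was as small as 0.02 points for Atp6v1d-202, and the same count over all genes was not made. Ppt1-201 had 79.8% in the first table and 37.8% in the second, Atp6v1e1-201 had 93.3% and 67.2%, and Atp6v0c-201 had 98.8% and 82.0%, 3 transcripts chosen after their values were seen. In the first table the same transcript led in both mice in 41 genes (93.2%, against 89.5% of all expressed nuclear protein-coding genes), with Gusb, Lamp2 and Cln3 as exceptions. One transcript led in both tables in 39 genes (88.6%, against 78.9% of all expressed nuclear protein-coding genes). The 5 genes whose leader differed between tables were Ctsl, Tpp1, Ppt1, Gusb and Lamp2.

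Lamp2 makes 3 proteins that share 1108 coding bases and differ in the last exon, which encodes the membrane span and the short cytosolic tail. LAMP-2A, the form with a known role in chaperone-mediated autophagy, comes from Lamp2-201, LAMP-2B from Lamp2-202 and LAMP-2C from Lamp2-203. Their last 48 coding bases, from the GENCODE M21 transcripts, are shown because the choice of exon sets the tail. Capitals mark the last 4 codons before the stop, which begin with a tyrosine codon and form the tyrosine-based signal that sorts these proteins to lysosomes. Lamp1 and Cd63 are shown for comparison, since they end in a signal of the same kind. On GRCm38 the stretches lie at chrX:38405435-38405482 (minus strand) for Lamp2-201, chrX:38421715-38421762 (minus) for Lamp2-202, chrX:38402142-38402189 (minus) for Lamp2-203, chr8:13174508-13174555 (plus) for Lamp1-201 and chr10:128912690-128912737 (plus) for Cd63-202.
Lamp2-201: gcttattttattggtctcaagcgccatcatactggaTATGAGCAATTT
Lamp2-202: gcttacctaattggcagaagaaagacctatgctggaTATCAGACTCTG
Lamp2-203: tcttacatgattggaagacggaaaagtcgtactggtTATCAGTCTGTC
Lamp1-201: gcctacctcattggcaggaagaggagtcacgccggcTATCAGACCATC
Cd63-202: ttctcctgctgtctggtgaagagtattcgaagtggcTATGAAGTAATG

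All 3 forms of Lamp2 were present in the cortex. In the first transcript table Lamp2-203 held 38.0% and 37.6% of the gene's TPM, Lamp2-202 held 38.0% and 36.4%, and Lamp2-201 held 21.2% and 23.4%. The B and C forms overlapped between the mice, while the A form was lower than both in each mouse. The second table gave 36.1 ± 0.05% (SD, n = 2) for Lamp2-203, 36.9 ± 1.5% for Lamp2-202 and 20.9 ± 1.21% for Lamp2-201, the same order of the A form below the other two.

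Psap carries an alternative coding exon of 9 bases, at chr10:60297537-60297545 (plus strand, GRCm38), inside the part that encodes saposin B. It adds 3 codons without a change of reading frame. The exon is printed in capitals with 24 coding bases of Psap-205 on either side.
Psap-205: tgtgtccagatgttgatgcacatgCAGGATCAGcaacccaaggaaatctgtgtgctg
Psap-205, the only annotated transcript with the full exon, held 76.4% of the gene's TPM in replicate 1 and 79.6% in replicate 2. The transcripts without it held 22.03 ± 2.29% (SD, n = 2) together. The second table gave 72.3 ± 3.11% with the exon. Agreement between the tables stopped at single skipping transcripts: Psap-203 held 15.8 ± 2.72% in the first and 0.025 ± 0.01% in the second, and Psap-202 held 6.03 ± 0.28% and 20.2 ± 2.39%.

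Atp6v1h likewise has an exon of 54 coding bases that most transcripts skipped, at chr1:5101070-5101123 (plus strand, GRCm38). Its 18 codons, in capitals, are inserted in Atp6v1h-201 between 24 coding bases on either side.
Atp6v1h-201: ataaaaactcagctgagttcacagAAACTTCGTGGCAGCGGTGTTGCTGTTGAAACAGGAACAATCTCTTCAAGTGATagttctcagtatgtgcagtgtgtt
The skipping transcript, Atp6v1h-204, held 69.1% and 76.0% of the gene's TPM, and the 3 transcripts with the exon held 19.1% and 14.0%. The remaining 10.9 ± 1.32% (SD, n = 2) came from transcripts that do not span the exon. The second table gave 65.3 ± 3.64% and 16.2 ± 2.61%, so the skipping form was in excess in both mice and both tables.

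**Figure D4:**
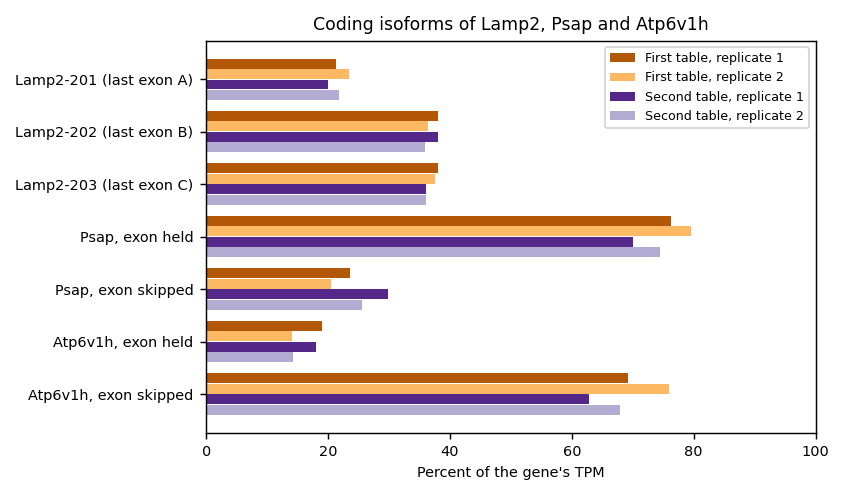
Percent of the gene's TPM taken by the 3 Lamp2 transcripts and by the Psap and Atp6v1h transcripts that hold or skip the exons described, with 4 bars each for the 2 mice in the 2 transcript tables. The exon was held in Psap in 70.1% to 79.6% and skipped in Atp6v1h in 62.8% to 76.0% of the TPM.

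A share of several genes' TPM was assigned to transcripts that are not annotated as protein-coding. The median of that share over the 44 genes was 3.50%, against 9.49% for all expressed nuclear protein-coding genes. Such a transcript led 3 genes, Ctsb, Atp6v1d and Arsa, in both mice, or 6.82% of the 44 against 5.36% of all genes. In the second table there were 4, with Tpp1 added, against 6.94% of all genes. The leading transcript was a retained-intron form in each of the 3.

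For Ctsb it was Ctsb-202, with 59.2% and 59.1% of the gene's TPM, and for Atp6v1d Atp6v1d-202, with 69.7% in each mouse. Both are short: Ctsb-202 has 801 bases, of which 91 (11.4%) lie outside the exons of protein-coding transcripts, and Atp6v1d-202 has 775 bases with 87 (11.2%) outside. Most of their bases are thus shared with a protein-coding transcript. Arsa-201 held 75.4 ± 5.31% (SD, n = 2), and 77 of its 2699 bases (2.85%) lie outside. When only protein-coding transcripts were summed, a count added after the data had been seen, Ctsb had 86.7 ± 4.77 TPM (SD, n = 2) in place of 215, Atp6v1d 36.0 ± 2.23 in place of 125, Cln3 5.34 ± 0.13 in place of 12.6 and Arsa 3.47 ± 0.59 in place of 14.2. Tpp1 was then at 10.5 TPM in replicate 1 and 9.55 in replicate 2. On that scale Atp6v1d was the lowest of the 11 pump genes, while 37 of the 44 genes stayed within 1.5-fold of their gene level. Psap had no such transcript.

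**Figure D5:**
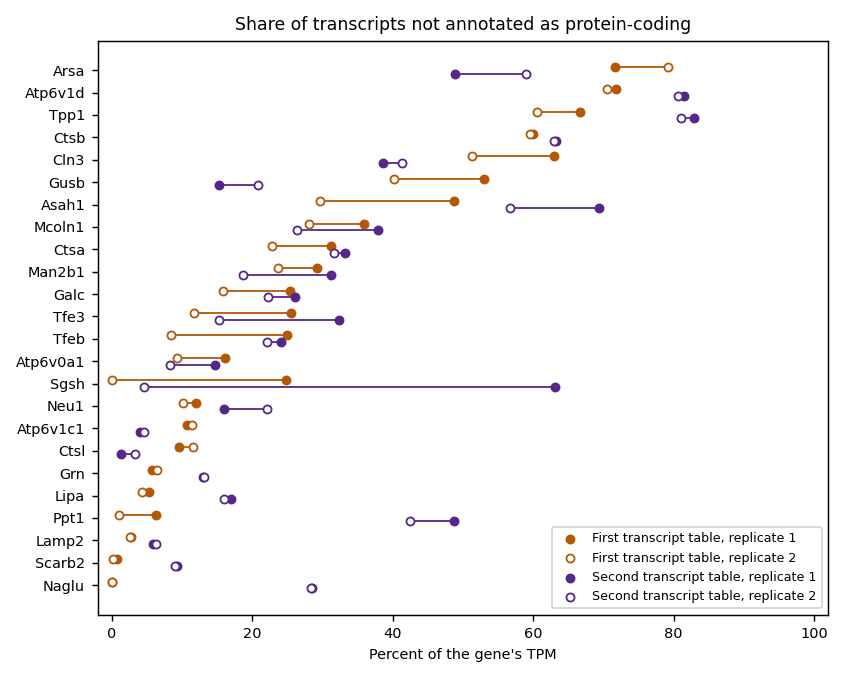
Percent of each gene's TPM assigned to transcripts not annotated as protein-coding, for the genes with a mean of at least 5% in either table, with filled points for replicate 1, open points for replicate 2, and the first table in brown and the second in purple. Arsa, Atp6v1d, Tpp1 and Ctsb lie at 53.9% or more in the mean of each table, and Sgsh spans 0% to 63.1% between mice and tables.

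The share was lower in replicate 2 in 33 of the 39 genes that had any (84.6%), against 69.1% of all such genes. Asah1 had 48.7% in replicate 1 and 29.7% in replicate 2, and Tfe3 25.5% and 11.7%. Sgsh, with 145 and 204 counts, had 24.7% and 0% in the first table and 63.1% and 4.52% in the second. Arsa differed in the other direction, with 71.6% in replicate 1 and 79.2% in replicate 2.

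The promoters were searched for CACGTG, a palindrome read the same on both strands that forms the core of the element bound by Tfeb and Tfe3, and for the longer palindrome TCACGTGA, which contains it. Windows of 300 bases, from 250 before to 50 after the start in RefSeq (GRCm38.p6), were available for 39 of the 44 genes. Asah1, Atp6v1b2, Atp6v1c1, Atp6v1h and Ctsb had no entry. CACGTG occurred in 14 of the 39 (35.9%), against 8.09% of all 27025 genes in the table and 11.8% of the expressed nuclear protein-coding genes in it. TCACGTGA occurred in 7 of the 39 (17.9%), against 1.12% of all genes and 2.20% of the expressed ones. The windows with CACGTG belonged to 3 of 5 proteases, 6 of 15 other hydrolases, 0 of 4 activators and regulators, 3 of 7 membrane proteins and 2 of 8 pump genes. A match describes letters in the window and does not show that a factor binds there.

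The matches to TCACGTGA in 6 of the 7 genes are shown with 11 bases on either side, in the direction of the gene and with the motif in capitals, since these genes span all roles that had a match. On GRCm38.p6 they lie at chr7:142387908-142387937 (minus strand) for Ctsd, chr2:164833749-164833778 (plus) for Ctsa, chrX:134601182-134601211 (minus) for Gla, chr8:3500462-3500491 (plus) for Mcoln1, chr7:126583340-126583369 (minus) for Cln3 and chr16:44139373-44139402 (minus) for Atp6v1a. Atp6v0d1 is the seventh gene, and Ctsa and Gla hold a second copy each.
Ctsd: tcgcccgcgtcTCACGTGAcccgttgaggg
Ctsa: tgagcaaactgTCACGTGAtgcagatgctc
Gla: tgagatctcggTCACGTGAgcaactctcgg
Mcoln1: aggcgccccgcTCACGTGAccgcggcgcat
Cln3: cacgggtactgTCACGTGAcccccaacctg
Atp6v1a: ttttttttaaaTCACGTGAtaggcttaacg

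Lamp1 holds 4 copies of CACGTG within 61 bases before its RefSeq start and none of the longer form. The stretch, at chr8:13159094-13159157 (plus strand, GRCm38.p6), ends before the annotated start of the gene, and the 4 copies are in capitals.
Lamp1: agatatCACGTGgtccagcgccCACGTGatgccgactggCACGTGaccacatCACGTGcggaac
The 14 genes with CACGTG had mean levels with a median of 40.1 TPM and the 25 without it of 30.4 TPM, and the 14 ranged from 1.88 TPM for Sgsh to 196 for Atp6v1a. Psap and Atp6v0c, the genes with the highest levels, did not hold it in these windows. Presence of the motif and level are given here side by side as a description.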

How the data were processed

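Each of the 2 libraries came with a gene table and 2 transcript tables, built on mm10 per the labels and GENCODE M21 per the deposited notes. Per the file headers, the gene table holds expected counts and TPM, as does the first of the transcript tables, and the second holds estimated counts and TPM. The strand setting, tools and versions: not given in the sources used here. Deposited TPM is scaled over all rows of a table, so abundant noncoding RNAs lower every other gene.

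Levels are deposited TPM, with the SD over both mice. Expressed means a TPM of at least 1 in each. The labels name an animal for each library, with 1 shared donor record. Ratios used rounded expected counts, TMM library sizes (edgeR 4.0.16, R 4.3.3) and a prior count of 2, and DESeq2 1.42.0 gave alternative size factors. The limit for a count of 0 is 3 counts, and limits and intervals cover counting error only. The ratio step was tested on simulated libraries with known folds, in which all other genes had the same shares. That test cannot show how the ratios behave where composition differs, as it did between these mice. Members and lists were chosen with earlier results of these data known. The named genes are all 44 members and, of other lists, those in a fixed pair or a pump subunit and the 3 highest and 3 lowest. Markers chosen to check cell types are also named. Some genes and pairs that this rule covers are not reported here. Python 3.11.15 was used.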

Additional observations from a re-analysis of the deposited data

How the results depend on the processing

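With 1 library per mouse, n is 2 and no call rests on a test. In the single mice the median of the 44 genes was 36.5 to 40.9 TPM, of proteases 49.5 to 52.8, of other hydrolases 14.8 to 15.1, of regulators 18.4 to 20.3, of membrane proteins 32.0 to 40.6 and of the pump 148 to 158. TPM depends on what it is scaled over. Over nuclear protein-coding genes only, these 6 medians became 87.1, 115, 33.8, 43.6, 81.5 and 345 TPM, and they became 61.3, 96.1, 21.5, 32.8, 60.1 and 245 with the second transcript table. The median of all expressed genes moved too, to 34.5 and 24.5 TPM, and the 44 genes stayed 2.45-fold to 2.57-fold above it. From protein-coding transcripts only, a setting added after seeing the data, the medians were 33.8, 42.1, 10.8, 17.3, 29.6 and 145 TPM. Under that setting the ratio of Ctsd to Ctsb became 1.64 in place of 0.667 and that of Arsa to Galc 0.495 in place of 1.65, both on the other side of 1. Among subunit shares, expected counts gave 86.9% for Atp6v0a1, 95.2% for Atp6v0e2, 99.4% for Atp6v1c1 and 84.1% for Atp6v1g2, and the second table gave 99.99% for Atp6v0d1, 89.5% for Atp6v0e2 and 82.7% for Atp6v1g2. With spike-in counts as library sizes, the median log2 ratio was -0.34 and 2 genes, Galc and Lipa, passed 1.5-fold (20.98% of all genes). The second table, DESeq2 size factors, a mean count of at least 10 and a prior count of 0.5 left 0 genes past 1.5-fold. Under spike-in scaling 24 ratios whose interval lay above 0 changed sign, to -0.34 for Ctsb, -0.27 for Ctsd, -0.28 for Ctsl, -0.21 for Ctsa, -0.26 for Ctsz, -0.16 for Gaa, -0.23 for Smpd1, -0.18 for Arsb, -0.25 for Man2b1, -0.14 for Arsa, -0.27 for Psap, -0.31 for Tfe3, -0.31 for Lamp1, -0.25 for Cd63, -0.20 for Atp6v0c, -0.26 for Atp6v1b2, -0.30 for Atp6v1e1, -0.31 for Atp6v1a, -0.34 for Atp6v0a1, -0.31 for Atp6ap1, -0.27 for Atp6v0d1, -0.38 for Atp6v1d, -0.39 for Atp6v1c1 and -0.40 for Atp6ap2. The longer motif was found in 7 genes in place of 14. No paired analysis was possible because there is 1 group. Lengths and sequence features of the proteins were planned and not run.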
